A study of Drosophila melanogaster with 2 samples.

Results

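CTCF peaks inside exons and away from promoters were the reproducible dm6 peaks whose summit lay more than 1 kb from every annotated FlyBase transcript start and within an exon. They numbered 208 of 5443 reproducible peaks, a share of 3.82% (95% Wilson interval 3.34 to 4.36), and 10.3% of the 2028 peaks away from promoters (9.01 to 11.7). Each summit was put in 1 class, and the exonic ones comprised 80 in coding sequence, 92 in 3′ UTRs, 19 in 5′ UTRs and 17 in other annotated exons. The other peaks away from promoters were 1140 intronic and 680 intergenic ones, and these serve as the comparison below. The peaks came from chromatin immunoprecipitation and sequencing of whole Drosophila melanogaster embryos, 0 to 16 h old and of both sexes. All embryos were of a single transgenic line, CTCF-GFP, in which CTCF has GFP fused to its C terminus, and an antibody against GFP pulled down the tagged protein. There was 1 group and no other group to compare it with, in 2 biological replicates that the labels call 2 and 3. Whole embryos mix many cell types, so a weak peak in all cells and a strong peak in few cells cannot be told apart. The files give no read depth, and all intervals cover counting error over peaks or motif copies only.

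CTCF binds DNA through an array of zinc fingers that reads a long, well conserved motif. In flies, as in vertebrates, it is known as an insulator protein, and it sits at many boundaries between chromatin domains. In coding exons the bases of such a binding site also spell amino acids. The fly CTCF motif has a core of 9 bases, searched here on both strands as AGAGGGCGC, AGATGGCGC, AGGGGGCGC and AGGTGGCGC.

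Exact core copies stood near the summits of some strong exonic peaks in different kinds of exon. Whether tagged CTCF contacted these bases was not tested. Printed here are 29 bases around the exact core in 12 peaks, which were those with the highest signal among the exonic peaks with an exact core, from the chromosome arms for which sequence is shown. Each runs 5′ to 3′ on the strand of the core, in lower case with the 9 bases of the core in capitals, and was read from the RefSeq assembly of dm6. In 6 of the 12 the core read along the gene's own strand, and in 6 it read against it.
klar, coding, chr3L:506135-506163, minus strand: gctgtgagatAGAGGGCGCtgccacggtg
HisRS, coding, chrX:18517607-18517635, minus strand: gtccgccgccAGAGGGCGCcgtctggaac
Pde1c, coding, chr2L:11816558-11816586, minus strand: cggagccggcAGATGGCGCtgcggcctaa
Ubr1, coding, chrX:16967621-16967649, plus strand: tgcactcggcAGGGGGCGCcacaacgacg
CG9166, 3′ UTR, chr3L:1352351-1352379, minus strand: tttcagaaatAGGTGGCGCtagcgtcgct
raskol, 3′ UTR, chrX:17751916-17751944, plus strand: attcaagagtAGAGGGCGCcgcttacttt
Mipp1, 3′ UTR, chr3L:16563513-16563541, minus strand: cgcgagcgctAGATGGCGCtttccagcag
Hr4, 3′ UTR, chrX:2006000-2006028, minus strand: ctctaaatacAGGTGGCGCcactgaggaa
fog, 3′ UTR, chrX:22824877-22824905, plus strand: ggtcgcctacAGATGGCGCgtgtgtgctt
CG9164, 3′ UTR, chrX:15380362-15380390, minus strand: aatgacccacAGATGGCGCcaggaggacg
CG10804, 5′ UTR, chrX:3481090-3481118, minus strand: acgcaacactAGGTGGCGCcgaggaaagt
asRNA:CR31912, other exon, chr2L:5771335-5771363, minus strand: taaatctgtgAGAGGGCGCtgctgtagaa
All 4 spellings of the core occurred among these 12. In 7 of them the base 4 positions before the core was C, a position taken up again below.

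The strongest coding peak lay in the last exon of otp, a homeobox transcription factor gene, at chr2R:20883927-20885415. Its signal, the authors' unscaled peak score, was 53840 in the reproducible list, 25350 in replicate 2 and 28568 in replicate 3. The summit stood 25 bp from an exact core that read along the gene. The next peak, in the third exon of klar, a gene for a protein that links nuclei and lipid droplets to microtubule motors, had a signal of 32078, with 16052 in replicate 2 and 15868 in replicate 3. A peak in HisRS, which encodes histidyl-tRNA synthetase, followed at 13755, with 6516 in replicate 2 and 7229 in replicate 3. The gene Bx also spans that summit. Below these, the signal fell off within a few genes. Pde1c, a cyclic nucleotide phosphodiesterase gene, had 9865 in the reproducible list, 4441 in replicate 2 and 5446 in replicate 3. Ubr1, a ubiquitin ligase gene of the N-end rule pathway, had 8466, with 3853 in replicate 2 and 4625 in replicate 3. par-1, a gene for a kinase of cell polarity, had 6946, with 3146 in replicate 2 and 3808 in replicate 3. Of the 10 coding peaks with the highest signal, 8 had the exact core and the remaining 2, in CG14591 and CG12502, matched it with 1 mismatch. CG14591 had 2370 in replicate 2 and 2689 in replicate 3, and CG12502 had 1295 and 1444. Faa and CG12985, both with the core, had reproducible-list signals of 3235 and 2872. Faa encodes fumarylacetoacetase, an enzyme of tyrosine breakdown.

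In 3′ UTRs the strongest peak was that of CG10357, at chr3L:3615795-3617357, with a signal of 52334, of which replicate 2 showed 24892 and replicate 3 showed 27542. CG10222, at chr3L:13410685-13411772, followed with 28167, from 13621 in replicate 2 and 14609 in replicate 3. Neither had the exact core, but both matched it with 1 mismatch. CG9166, whose summit the gene Ptp61F also spans, had 24987, with 11889 in replicate 2 and 13119 in replicate 3. raskol, a gene for a Ras GTPase-activating protein, had 22962, with 11257 in replicate 2 and 11723 in replicate 3. Both of these had the exact core. RpS26, at chr2L:18440964-18441864, a gene for a protein of the small ribosomal subunit, had 15950, with 7565 in replicate 2 and 8421 in replicate 3. No match to the core, even with 1 mismatch, stood within 50 bp of that summit. Cam, which encodes the calcium sensor calmodulin, had 15037 in the reproducible list, 6848 in replicate 2 and 8190 in replicate 3, with 2 core copies in its window. Mipp1, an inositol polyphosphate phosphatase gene, had 11730, with 5409 in replicate 2 and 6346 in replicate 3. Hr4, a nuclear receptor gene of the ecdysone response, had 11079, with 5341 in replicate 2 and 5765 in replicate 3. All 8 were higher in replicate 3, as were 156 of the 204 exonic peaks matched in both. The same count over all reproducible peaks is not given here, and the score has no stated scale. The count therefore shows no trait of exonic peaks.

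The strongest of the 5′ UTR peaks lay in Mef2, the muscle differentiation factor gene, at chr2R:9942426-9943539. Its signal was 48410, with 22337 in replicate 2 and 26136 in replicate 3. baz, at chrX:17175352-17176548, which encodes the polarity protein Par-3, had 24407, with 11583 in replicate 2 and 12852 in replicate 3. Both matched the core with 1 mismatch and neither exactly, while the next 2 had the exact core. These were CG10804 at 9790 and mew, an integrin alpha subunit gene, at 1591. The mew peak had 766 in replicate 2 and 838 in replicate 3, and the CG10804 peak had 4570 and 5245. Among other exons, asRNA:CR31912, an antisense transcript within CG9171, had 30058, with 14500 in replicate 2 and 15600 in replicate 3. lncRNA:CR44980 had 9980, lncRNA:CR43650 1482 and lncRNA:CR43626 516 in the reproducible list. The second and the last of these 4 lacked the exact core.

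**Figure D1:**
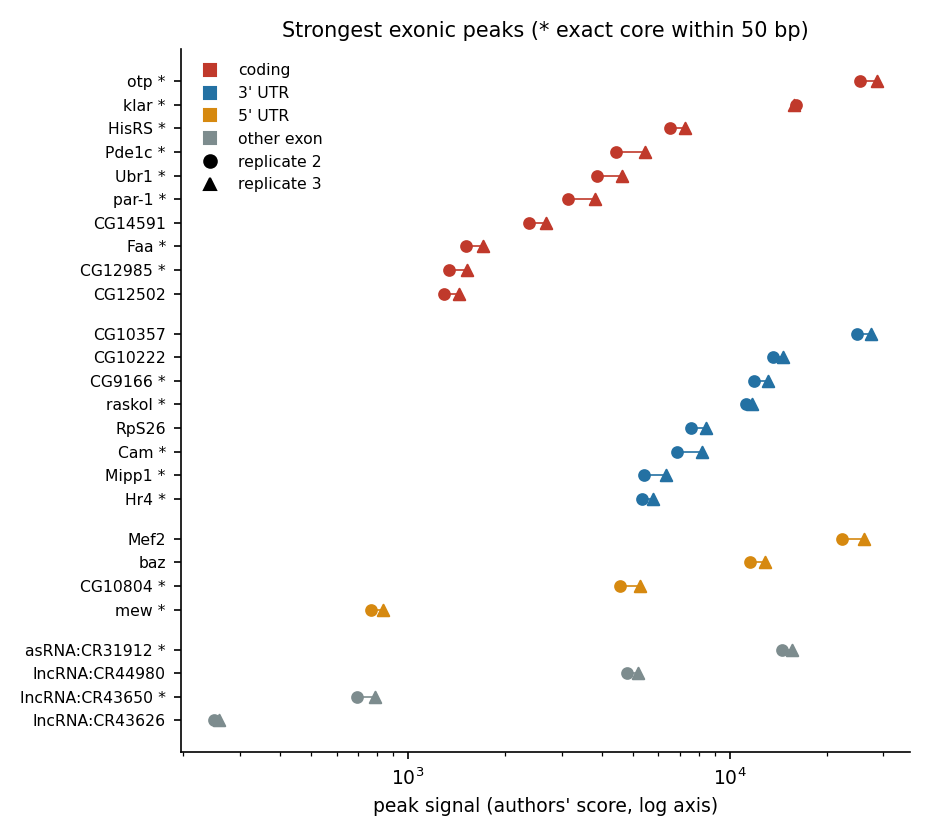
Peak signal (the authors' score, log axis) in replicate 2 (circles) and replicate 3 (triangles) for the strongest exonic peaks of each class, named by host gene and coloured by class, with an asterisk for an exact core within 50 bp of the summit. The replicates lie close together for every gene shown, from otp at 25350 and 28568 to lncRNA:CR43626 at 249 and 258, and klar is the only one lower in replicate 3.

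A few exonic peaks held most of the summed signal, a sum over a score with no stated scale. The lowest was 199 and the highest 53840, around a median of 479 and quartiles of 281 and 1431, and the 10 strongest held 54.8% of the summed signal. Of the 208, 15 exceeded 10000 and 8 stood among the 100 strongest reproducible peaks, of which 2 were coding. By class the median signal was 575 in coding sequence, 479 in 3′ UTRs, 1022 in 5′ UTRs and 279 in other exons. It was 354 for intronic and 506 for intergenic peaks. Quartiles were 243 and 853 for intronic peaks and 274 and 1562 for intergenic ones. The share of summed signal and the count above 10000 are not given for these classes. Neither can therefore be called particular to exonic peaks. Of the exonic peaks 134 (64.4%) exceeded the median of all reproducible peaks, 345, against 51.8% of intronic ones (odds ratio 1.68, 1.24 to 2.29, two-sided Fisher's exact test, adjusted p = 0.00129 over 9 comparisons). With the exonic class limited to peaks exonic in every transcript that spans them, the odds ratio was 1.41 (Fisher's exact test, adjusted p = 0.0681), with coding peaks left out it was 1.55 (adjusted p = 0.0745), and within the stronger peaks of the list it was 1.44 (adjusted p = 0.121), so the call was lost in each. Against intergenic peaks, 62.1% of which exceeded the median of all reproducible peaks, the odds ratio was 1.11 (0.801 to 1.53, Fisher's exact test, adjusted p = 0.638).

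Exons took fewer peaks than their length. They make up 19.8% of the bases away from promoters and held 10.3% of the peaks there. The shortfall stood in coding sequence, which had 5.69 peaks per Mb, while 3′ UTRs had 18.5, introns 23.5 and intergenic sequence 20.2. The short 5′ UTR and other exon classes had 31.8 and 27.4 per Mb, from 19 and 17 peaks. These densities were not tested, since neighbouring peaks are not independent and the mappability of each class was not measured.

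The exact core stood within 50 bp of 66 of the 208 exonic summits, 31.7% (25.8 to 38.3). Over all reproducible peaks the share was 12.7%, and over all peaks away from promoters 22.3%. None of the 208 had the core in either window of the same width 500 bp to the side (exact McNemar test, larger p = 2.71e-20). Where the core was present, the median distance between its centre and the summit was 14 bp, and 3 peaks had more than 1 copy. With 1 mismatch allowed, the share was 50.5% (43.7 to 57.2).

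Coding peaks had the core most often. It stood at 41 of 80 coding summits, 51.2% (40.5 to 61.9), and with 1 mismatch allowed at 73.8%. In 3′ UTRs it stood at 18 of 92, 19.6% (12.7 to 28.8), so that coding exceeded 3′ UTR peaks with an odds ratio of 4.32 (2.20 to 8.50, Fisher's exact test, adjusted p = 5.06e-05). It stood at 4 of 19 peaks in 5′ UTRs and at 3 of 17 in other exons, classes too small for a narrow interval. Intronic peaks had it at 19.9% and intergenic ones at 23.5%. The odds ratio of coding against intronic peaks was 4.23 (2.66 to 6.71, Fisher's exact test, adjusted p = 8.96e-09 over 8 comparisons chosen after the data were seen). For 3′ UTR against intronic peaks it was 0.978 (0.573 to 1.67, Fisher's exact test, adjusted p = 1.00).

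Taken as 1 class, exonic peaks had the core more often than intronic ones (odds ratio 1.87, 1.35 to 2.59, Fisher's exact test, adjusted p = 4.36e-04) and intergenic ones (1.51, 1.07 to 2.13, adjusted p = 0.0292). Neither difference was seen without the coding peaks, where 19.5% of the 128 other exonic peaks had the core (odds ratios 0.976 and 0.789, Fisher's exact tests, adjusted p = 1.00 and 0.810). Among the stronger 134 exonic peaks the odds ratio against intronic ones was 1.15 (Fisher's exact test, adjusted p = 0.628), and the intergenic comparison lost its call there (1.28), with replicate 3 left out (1.39), at promoter distances of 500 bp (1.34) and 2000 bp (1.26), with a window of 25 bp (1.48) and for peaks exonic in every transcript (1.45).

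Many weak coding peaks also had the core. With peaks away from promoters split into 3 equal groups by signal, 63.2% of coding and 53.8% of intronic peaks in the strongest group had it. In the middle group the shares were 47.6% and 11.8%. In the weakest, with signals of 196 to 288, they were 7 of 21 (33.3%) and 7 of 434 (1.61%). The coding peaks with a core in this weakest group included those in the wing gene vg, at 281, the septate junction gene mesh, at 251, and the neuropeptide gene Tk, at 216, named after their values were seen. Replicate 2 and replicate 3 showed 114 and 167 at vg, 97 and 152 at mesh, and 98 and 125 at Tk. All 3 were higher in replicate 3, as were most exonic peaks. In 3′ UTRs the share was 38.2% in the strongest group, 8.57% in the middle one and 8.70% in the weakest. These shares by signal are a description with no test.

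**Figure D2:**
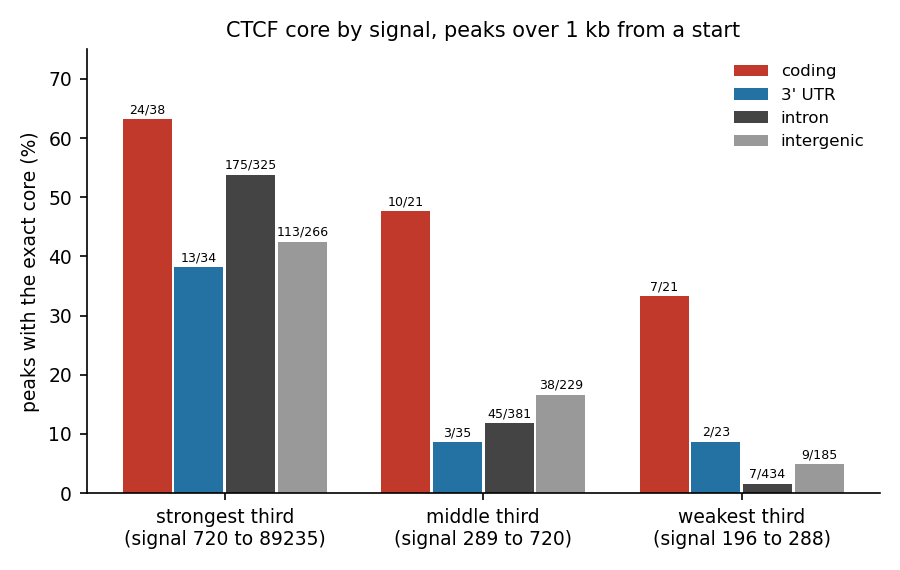
Share of peaks with the exact core within 50 bp of the summit (%), for coding, 3′ UTR, intronic and intergenic peaks more than 1 kb from a start, in 3 groups of signal, with peaks having the core over all peaks above each bar. Coding bars fall from 63.2% to 33.3% across the groups, while intronic bars fall from 53.8% to 1.61%.

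The core was rare below the reproducible list. Among pooled peaks that did not enter it, 18 of 1078 coding ones had the core (1.67%), against 0.396% of intronic ones, 0.553% of all those away from promoters and 0.490% of all of them. It was at 1.68% of the 119 such peaks in 5′ UTRs, 1.39% of the 144 in other exons and 0.645% of the 465 in 3′ UTRs, with no test. Signal and core also went together within exons. Exonic peaks with the core had a median signal of 1188 and those without it 393. For coding peaks the medians were 901 and 414, and for 3′ UTR peaks 1807 and 393. Intronic peaks with the core had a median of 1447.

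Counted from the sequence, coding copies of the core were the least often bound. Away from promoters the genome held 2081 exact copies, of which 22.6% had a reproducible summit within 50 bp. Coding sequence held 537 of them, or 38.2 per Mb, against 17.9 per Mb in introns and 12.1 in 3′ UTRs. Of the coding copies 44 had a summit, 8.19% (6.16 to 10.8). Of the 3′ UTR copies 20 of 60 did, 33.3% (22.7 to 45.9), and coding was below them with an odds ratio of 0.178 (0.0961 to 0.331, Fisher's exact test, adjusted p = 1.12e-06). With summits required within 25 bp 38 of the coding and 9 of the 3′ UTR copies counted as bound (odds ratio 0.432, Fisher's exact test, adjusted p = 0.0568). Introns had 236 of 866 copies bound, 27.3% (24.4 to 30.3), and intergenic sequence 166 of 589, 28.2% (24.7 to 31.9).

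Over all exonic copies 69 of 626 were bound, 11.0% (8.80 to 13.7), fewer than in introns (odds ratio 0.331, 0.247 to 0.443, Fisher's exact test, adjusted p = 4.42e-14) and intergenic sequence (0.316, 0.232 to 0.429, adjusted p = 1.46e-13). Without coding copies these were 1.04 and 0.995, from 25 of 89 bound. Coding against intronic copies gave 0.238 (0.169 to 0.336, Fisher's exact test, adjusted p = 8.07e-19 over the 8 comparisons chosen after the data were seen). In the relaxed pooled list, 11.7% of coding and 31.2% of intronic copies had a summit.

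**Figure D3:**
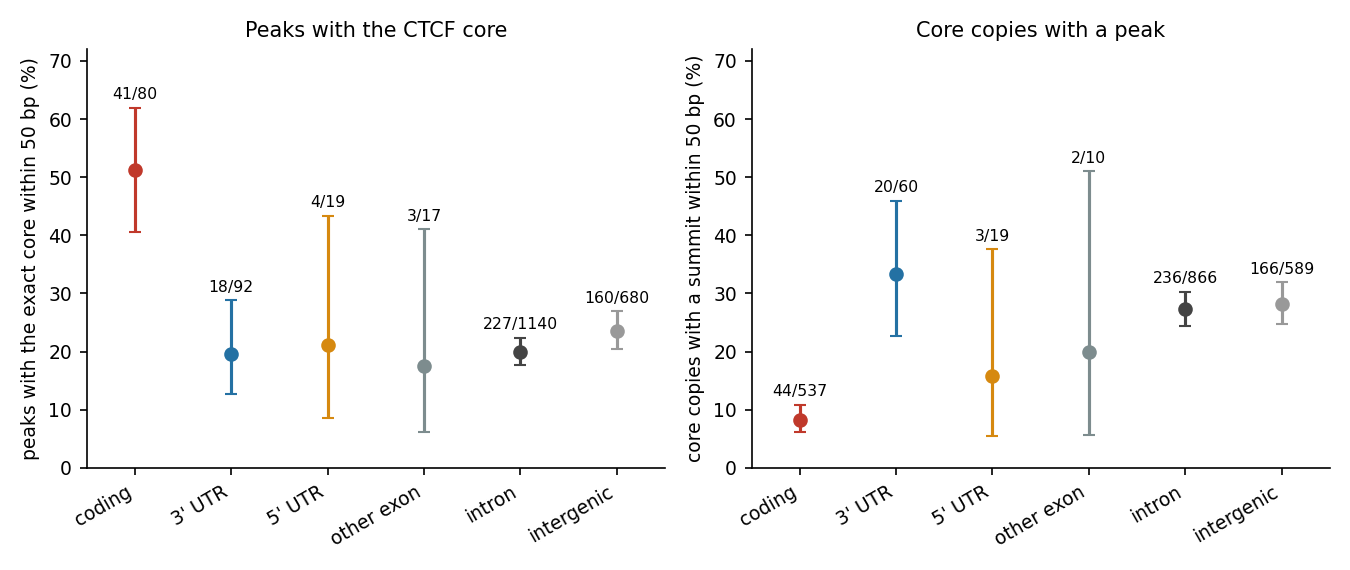
Left, share of peaks with the exact core within 50 bp of the summit (%); right, share of genomic core copies with a reproducible summit within 50 bp (%), both by class, more than 1 kb from a start, with 95% Wilson intervals and counts above each point. Coding stands highest on the left at 51.2% and lowest on the right at 8.19%.

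By spelling of the core, coding copies had a lower share than intronic ones in each of the 4. The margin was wide in 2 and narrow in the other 2, with no test by spelling. With AGGTGGCGC, 6.61% of 242 coding and 34.6% of 237 intronic copies were bound, and with AGATGGCGC 8.72% of 172 and 36.1% of 280. With AGAGGGCGC the shares were 10.2% of 88 and 15.5% of 161. With AGGGGGCGC they were 11.4% of 35 and 14.9% of 188.

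Bases beside the core were compared between bound and unbound copies. Among intronic and intergenic copies, the base before the core with the largest difference was C at 4 positions before it, present in 73.1% of bound and 17.3% of unbound copies. That position was picked from those copies after the data were seen, so their own values are a description. In coding copies, which did not enter the choice, it was present in 32 of 44 bound (72.7%) and 114 of 493 unbound (23.1%). Coding copies with this C were bound in 21.9% of cases (16.0 to 29.3) and those without it in 3.07% (1.76 to 5.29). For intronic and intergenic copies the corresponding shares were 61.8% and 11.0%, so coding copies were below them with and without the C. After the core, the base with the largest difference among intronic and intergenic copies was A directly behind it, in 8.21% of bound and 36.1% of unbound copies. In coding copies it was in 22.7% of bound and 24.1% of unbound ones, and 7.75% of those with it and 8.33% of those without it were bound. None of these shares was tested. HisRS, Pde1c and Ubr1 among the coding sequences above have this C, and klar, with the higher signal, does not.

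The strand of the core in coding exons did not differ detectably between bound and unbound copies. Of the 44 bound copies 19 read along the gene (43.2%), and of 493 unbound ones 225 (45.6%), with an odds ratio of 0.905 (0.486 to 1.69, Fisher's exact test, adjusted p = 0.875). By reading frame, the core's first base was the first base of a codon in 12 bound copies on the strand opposite to the gene, the second in 7 and the third in 5. Unbound copies on that strand had 53, 137 and 75. On the gene's own strand the counts were 2, 9 and 6 for bound and 14, 149 and 55 for unbound copies, and the others lay across an exon edge.

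The windows around coding summits were rich in G and C. The median GC content of the window within 50 bp of the summit was 59.4% for coding peaks, 39.6% for 3′ UTR peaks and 39.6% for intronic ones. Around coding copies it was 60.4% for bound and 58.4% for unbound ones. Its part in the low share of bound coding copies was not tested.

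Motifs of 7 other factors were searched on both strands, and none passed the test between exonic and other peaks away from promoters (Fisher's exact tests, adjusted p = 1.00 for each), and at an unadjusted threshold of 0.05 the count was also 0. The letters searched were TATCGATA for DRE, GGTCACAC for motif 1, TGCATAC for su(Hw), GAGAG for GAGA, GCCAT for Pho, CAGGTAG for Zelda and CGATA for BEAF-32. The smallest unadjusted p was that of su(Hw), an insulator protein, whose motif was at 2.88% of exonic and 4.89% of other peaks (odds ratio 0.578, 0.250 to 1.34, Fisher's exact test, p = 0.228). GCCAT, which overlaps the reverse complement of cores with ATGGC, was at 28.4% and 26.9%. Over all reproducible peaks these 2 motifs were at 3.25% and 22.6%.

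Positions within transcripts were counted without a background, since the shares of exonic bases in last exons and near transcript ends were not measured. Of the 208, 127 were in the last exon of their transcript, made up mainly of 91 of the 92 3′ UTR peaks and 21 of the 80 coding ones. The 3′ UTR summits were a median of 479 bp from the end of the host transcript, and 68 of 92 were within 1 kb of it. An end of a gene on the opposite strand stood within 1 kb of 27 of them. Of the 8 strongest 3′ UTR peaks, 5 lay 102 to 127 bp before the transcript end, namely those of CG10357, CG10222, raskol, RpS26 and Mipp1. In all, 8 of the 92 lay 100 to 130 bp before it, a range picked after the values were seen. Of the 208 summits, 43 were intronic in at least 1 other transcript and 21 lay in a second gene that spans them. Coding peaks with the core had their next peak at a median of 7225 bp, and those without it at 1780 bp.

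The 208 peaks lay in 189 host genes, of which 176 were protein-coding. A reproducible peak within 1 kb of one of their own starts was present in 88 of them, 46.6%, against 24.4% of all genes. The hosts were not matched to other genes for gene type, length or expression, and this difference was not tested. Of all 17683 genes, 13945 were protein-coding. Several hosts had more than 1 peak. pros, which encodes a homeodomain protein of neural differentiation, had 3 in its 3′ UTR within 2768 bp, at signals of 330, 437 and 289, and the core was at the second. lncRNA:CR43334 had 4 over 6980 bp, none with the core, at 247 to 386. klar had a second coding peak of 836 at 1943 bp from its strong one, and baz a second 5′ UTR peak of 456 at 2783 bp. Pairs were also present in Cals, RSG7, CG4822 and sm, at signals of 208 to 1221, without the core.

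Host genes were also counted in short lists that do not hold every gene of their kind. Of 8 Hox genes Antp and pb hosted an exonic peak, with signals of 393 and 262. Of 21 listed nuclear receptor genes EcR, Hr3 and Hr4 did, with 342, 863 and 11079. Of 55 listed homeobox genes otp and ct, at 53840 and 386, did, and pros is not on that list. Of 20 listed muscle genes Zasp52, at 403, did, and of 33 listed genes of signalling pathways sgg, a kinase of the Wnt pathway, at 433. None of 24 listed synapse and ion channel genes and none of 22 listed Polycomb and Trithorax genes did. Over all protein-coding genes the share with an exonic peak was 1.27%. Among the short lists the share was highest for Hox genes, at 2 of 8, and for muscle genes it was 1 of 20. It was 14.3% for nuclear receptor, 3.64% for homeobox and 3.03% for signalling genes, and 0% for the lists without a host. The lists are so short that 1 host puts any of them above 1.27%, as for signalling genes. For the muscle and signalling lists, with 1 host each, standing above that share is therefore no sign of an excess of hosts. The Hox, nuclear receptor and homeobox lists had more than 1 host each. None of the short lists was tested, so whether any has an excess was not decided. Genes of these kinds outside the lists hosted exonic peaks too, among them the ion channel genes Piezo, at 968, and pHCl-1, at 1369 and 332, and the Wnt ligand gene Wnt4, at 465, named after their values were seen. Hr3, Hr4, otp and Piezo had the exact core, and of the other hosts named here only pros, at its second peak, did.

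By chromosome, X held 55 exonic peaks, 2L 35, 2R 31, 3L 44, 3R 40 and chromosome 4 the remaining 3. Exonic peaks were 5.45% of the reproducible peaks on X and 3.00 to 3.94% on the other large arms.

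The limit of 1 kb fell in no gap. Just beyond it stood coding pyd at 1003 bp from a start, with a signal of 1805, hpRNA:CR32205 at 1007 bp and 222, and lncRNA:CR43334 at 1018 bp and 271. Just within it stood gammaSnap2 at 983 bp and 272, eas at 968 bp and 337, and fus at 963 bp and 1152. Over all exonic summits, the core was at 4.24% of the 661 within 250 bp of a start, at 17.9% of 84 from there to 500 bp and at 17.6% of 74 from there to 1 kb. It was at 34.5% of the 55 between 1 and 1.5 kb and at 24.1% of 29 from there to 2000 bp. From there to 5000 bp it was at 30.7% of 75, and farther out at 34.7% of 49.

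The reproducible list was itself made from both replicates. A summit within 100 bp was listed in both for 204 of 208 exonic peaks (98.1%), near the 96.1% of all reproducible peaks, with 1 missing in replicate 2 and 3 missing in replicate 3. Across these 204 peaks, which share their libraries and are not independent replicates, the signals had a Spearman rho of 0.945. The log2 ratio of replicate 3 to replicate 2 had a median of 0.17 and an SD of 0.39 across peaks. Its SD was 0.19 above the median signal of 479 and 0.52 below it, and 0.19 with the core and 0.45 without. The widest differences were at weak coding or 3′ UTR peaks without the core. MYPT-75D, a gene for a myosin phosphatase subunit, had 31 in replicate 2 and 188 in replicate 3, and CG33307 had 113 and 38.

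**Figure D4:**
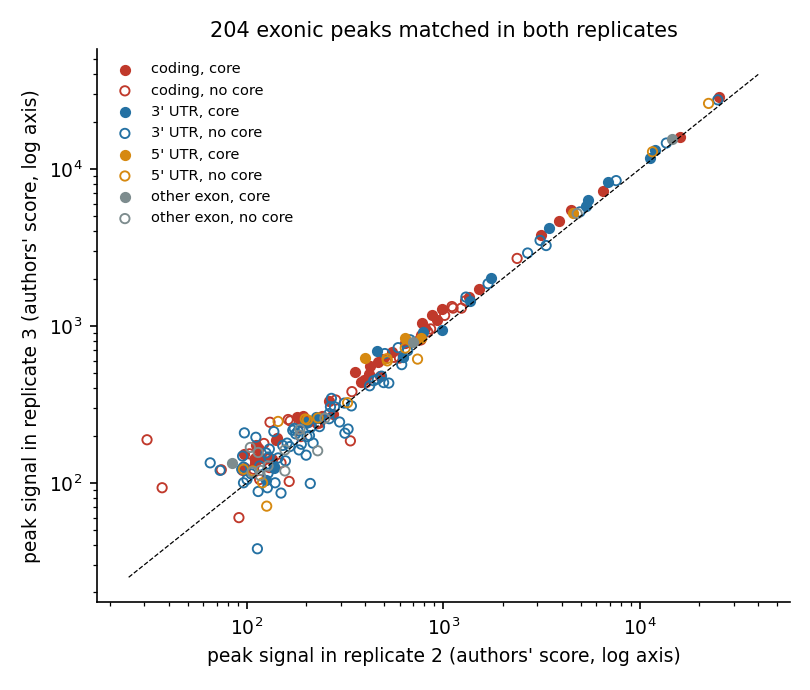
Peak signal in replicate 2 against replicate 3 (the authors' score, both axes log) for the 204 exonic peaks matched in both, coloured by class, filled where the exact core is within 50 bp, with the line of equality dashed. Filled points stay near the line over the whole range, while open points at low signal scatter, among them MYPT-75D at 31 and 188.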

How the data were processed

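Sonication gave a stated size range of 200-800, per the labels. The authors' dm6 peak lists were used: relaxed lists per replicate and from both replicates pooled, and a reproducible list thresholded by the irreproducible discovery rate, per the file headers. For the aligner and peak caller, names were not given in the sources used here. The deposited signal of each peak is the authors' score with no stated scale, and served only to rank and describe peaks. Lists on dm3 were not used. Sequence was read from the dm6 assembly of RefSeq, and genes from Ensembl release 115 with FlyBase annotation 6.54, without transposable elements. Coordinates are 1-based.

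Summits took 1 class in order of precedence: promoter (within 1 kb of a start), 5′ UTR, coding, 3′ UTR, any other exon, then intron and intergenic. A core counted when it lay wholly within 50 bp of the summit. Two-sided Fisher's exact tests were adjusted by the Benjamini-Hochberg method over 9 comparisons, with 0.05 as the threshold, and odds ratios have Woolf intervals. Neighbouring peaks are not independent, so p-values cover these lists, not variation between embryos. Replicate peaks were matched within 100 bp.

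The exonic peaks, lists and tests were chosen with earlier results of these data known. Named were the 10 coding, 8 3′ UTR, 4 5′ UTR and 4 other exon peaks with the highest signal, hosts of several peaks at least 500 bp apart, peaks nearest the 1 kb limit, 12 peaks with sequences and up to 3 hosts per gene list. Alternatives were other promoter distances, motif windows and motif forms, the stronger peaks only, each replicate alone, merged peaks, other annotations, and, added later, no coding peaks, signal groups and the pooled list. For each replicate alone, its relaxed list was cut to the 5443 strongest peaks. The statistics were tested on simulated data. Tools were scipy 1.17.1, pandas 2.3.3, numpy 2.4.6 and matplotlib 3.10.9 under Python 3.11.15.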

Additional observations from a re-analysis of the deposited data

How the results depend on the processing

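Of 111 values recomputed for 10 results under 14 alternatives, 89 kept their direction and their side of the threshold. The count of exonic peaks was 282 with a promoter distance of 500 bp, 124 with 2000 bp and 134 among the stronger peaks. It was 212 to 214 from 1 replicate alone, whose list was cut to its 5443 strongest peaks to equal the reproducible list in length. Exonic against intergenic core gave odds ratios of 1.34 at 500 bp, 1.26 at 2000 bp, 1.28 among the stronger peaks, 1.45 for peaks exonic in every transcript, 1.48 with a window of 25 bp, 1.39 to 1.49 with 1 replicate left out, and 0.789 without coding peaks. Exonic against intronic core gave 1.15 among the stronger peaks, 1.43 within 3 groups of signal (Mantel-Haenszel, judged by its unadjusted p), 1.78 to 1.85 with 1 replicate left out and 0.976 without coding peaks. Exonic against intronic signal lost its call for peaks exonic in every transcript (1.41) and without coding peaks (1.55). Among the stronger peaks, split at their own median, it gave 1.44 and was also short of the threshold. It gave 1.60 to 1.68 with 1 replicate left out, split at the median of the list used. Exonic against intergenic signal, never past the threshold, gave 0.935 at 500 bp, 0.965 for peaks exonic in every transcript and 0.950 to 0.971 with 1 replicate left out. Without coding copies, exonic occupancy gave 1.04 against introns and 0.995 against intergenic sequence, and coding against 3′ UTR occupancy gave 0.432 within 25 bp. With 1 replicate left out, coding against 3′ UTR gave 4.31 to 4.47 for the core and 0.183 to 0.187 for occupancy, exonic occupancy gave 0.318 to 0.346 against introns and 0.311 to 0.326 against intergenic sequence, and 63 to 68 exonic peaks had the core. Leaving out coding peaks shows that the exonic core and occupancy differences rest on them; for the other changes the cause was not tested. No paired analysis was possible because the series holds only 1 group. The files give no depth, and the 5′ UTR and other exon classes are too small to compare.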
